A study of Mus musculus with 2 samples.

Results

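Interferon-stimulated genes are the genes a cell switches on after an interferon has reached it, and the set described here consists of 42 genes chosen by symbol among the 23282 rows of each library. It holds 27 antiviral genes linked mainly to type I interferons, 10 genes of the guanylate-binding protein (GBP) and immunity-related GTPase (IRG) families, and 5 transcription factors of the pathway, with Irf8, a factor of myeloid cells, among them. Each symbol matched 1 row, and all 42 had a summed count of at least 20 over both libraries. The RNA came from dorsal root ganglia, where sensory neurons of body and limbs have their cell bodies, of wild-type (WT) mice. The AEW group was treated with Acetone/Ether/Water, which dries the skin and is used as a model of chronic itch, for 5 consecutive days, and ganglia were collected on day 6. The control group received Water. The design text states that RNA of 6 mice a group was pooled, taken here to mean 1 pool in each library, so there was no replicate check of any difference and no test across animals. The labels state neither age nor sex.

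Type I interferons bind the receptor pair Ifnar1 and Ifnar2, and the kinases Jak1 and Tyk2 then activate a complex with Stat2 and Irf9 that binds interferon-stimulated response elements in promoters. Interferon gamma acts through Ifngr1 and Ifngr2 on gamma-activated sites in promoters, and it is the main inducer of GBP and IRG genes, although the targets of both types overlap widely. In sensory ganglia, neurons, glia, endothelial cells and resident macrophages can all express such genes, and type I interferon acts directly on nociceptors.

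The libraries totalled 9333882 (control) and 14376228 (AEW) counts. The labels name neurons as the cell type, and all 12 pan-neuronal markers were measured, but both libraries also held abundant Schwann cell RNA, with 45621 and 57048 counts of the myelin gene Mbp, and RNA of immune cells. Pan-neuronal markers were higher in the AEW library (9 of 12, none lower) and macrophage markers lower (15 of 16, none higher). Of 6 measured keratinocyte genes 5 were higher, with Krt5 at 1 and 1336 counts. In pooled tissue, fewer cells of a type and less RNA per cell cannot be told apart.

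Letters of interferon response elements were found in the promoters of some members and not of others. RefSeq promoter windows (build GRCm38.p6, from 250 bases before to 50 after each start) matched 30 members. Both strands were searched for the letters GAAANNGAAA, a core of the interferon-stimulated response element (ISRE), and TTCNNNGAA, the gamma-activated site (GAS), and matches could overlap each other. ISRE letters stood in 17 of the 30 members, against 3.99% of the 27025 genes with a window. They stood in all 7 GBP and IRG genes with a window, in 9 of 18 type I-linked genes and in 1 of 5 transcription factors, Stat2. GAS letters stood in 11 of the 30, against 9.55% of all genes. The 250 bases before the start, 5′ to 3′ on the gene's strand, are shown for the genes on which the results turn, namely those called higher, an element-rich type I gene for comparison and GTPase genes that differ in ratio. Capitals mark ISRE letters on either strand.
Ifit1 (chr19:34640639-34640888, plus strand): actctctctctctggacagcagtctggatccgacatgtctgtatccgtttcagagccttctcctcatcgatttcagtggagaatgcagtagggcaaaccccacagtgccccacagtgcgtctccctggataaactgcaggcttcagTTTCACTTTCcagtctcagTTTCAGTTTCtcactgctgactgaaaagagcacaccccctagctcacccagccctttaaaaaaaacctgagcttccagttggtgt
Isg15 (chr4:156200819-156201068, minus strand): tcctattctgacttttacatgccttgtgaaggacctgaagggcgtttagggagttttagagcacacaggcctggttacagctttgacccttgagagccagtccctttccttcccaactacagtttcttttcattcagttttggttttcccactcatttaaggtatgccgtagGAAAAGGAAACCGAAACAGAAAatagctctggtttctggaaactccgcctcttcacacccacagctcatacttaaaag
Oasl2 (chr5:114896684-114896933, plus strand): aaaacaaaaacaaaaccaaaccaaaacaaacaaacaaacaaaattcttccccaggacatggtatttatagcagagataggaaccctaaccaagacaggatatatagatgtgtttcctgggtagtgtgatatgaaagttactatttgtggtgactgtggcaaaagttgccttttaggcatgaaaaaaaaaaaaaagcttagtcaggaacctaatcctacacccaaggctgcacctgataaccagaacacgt
Gbp7 (chr3:142530086-142530335, plus strand): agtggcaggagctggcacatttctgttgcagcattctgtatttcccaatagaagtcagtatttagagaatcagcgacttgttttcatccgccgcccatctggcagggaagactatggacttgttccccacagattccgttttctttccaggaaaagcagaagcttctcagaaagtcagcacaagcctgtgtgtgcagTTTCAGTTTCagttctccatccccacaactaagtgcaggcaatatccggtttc
Irgm1 (chr11:48871421-48871670, minus strand): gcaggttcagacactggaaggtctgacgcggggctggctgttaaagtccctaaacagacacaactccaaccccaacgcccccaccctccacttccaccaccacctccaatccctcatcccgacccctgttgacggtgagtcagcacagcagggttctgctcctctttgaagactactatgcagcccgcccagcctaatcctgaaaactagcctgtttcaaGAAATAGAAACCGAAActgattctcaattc
Irgm2 (chr11:58214727-58214976, plus strand): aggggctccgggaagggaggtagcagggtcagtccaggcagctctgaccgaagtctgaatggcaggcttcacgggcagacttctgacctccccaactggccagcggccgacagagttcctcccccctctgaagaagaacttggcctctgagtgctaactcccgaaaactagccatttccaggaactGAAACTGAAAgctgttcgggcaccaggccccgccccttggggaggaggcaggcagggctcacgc
In Isg15 the matches overlap and begin 78, 72 and 66 bases before the start, and in Ifit1 they lie on the opposite strand at 104 and 85 bases. Irgm1 holds overlapping matches at 30 and 24 bases and Irgm2 a single one at 64 bases. No match was found in the Oasl2 window. GAS letters, not marked above, stand in the Gbp7 window at 106 and 87 bases and in that of Irgm2 at 75 bases. Irf8 is shown because its first window lacks ISRE letters, as that of Oasl2 does, but holds a pair of GAS matches. These are in capitals, at 171 and 153 bases before the start.
Irf8 (chr8:120736108-120736357, plus strand): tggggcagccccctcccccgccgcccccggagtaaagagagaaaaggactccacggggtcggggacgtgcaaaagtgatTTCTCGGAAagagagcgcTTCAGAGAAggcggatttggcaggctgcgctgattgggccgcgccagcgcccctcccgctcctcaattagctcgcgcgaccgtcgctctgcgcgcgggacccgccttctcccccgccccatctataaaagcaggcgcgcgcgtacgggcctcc

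Interferon-stimulated genes were on the whole somewhat lower in the AEW library, with a few genes that went the other way. A gene was called when its ratio of scaled CPM (counts scaled to the TMM-adjusted library size) was at least 1.5-fold and the exact 95% counting interval excluded 1. By this rule 13 of 42 members (31.0%) were lower, where 14.9% of all 14854 measured genes were, and 2 of 42 (4.76%) were higher, where 17.3% of all measured genes were. The median log2 ratio of the members was -0.35, beside 0.03 over all measured genes, and 31 of the 42 ratios lay below 1. Ratios ranged from -2.10 for Mx1 to 1.21 for Oasl2 on the log2 scale. Both ends belonged to the type I-linked class, so the spread within that class was as wide as the whole set. Irf8 alone stayed called under a further limit. A member then also had to lie more than 3 scaled absolute deviations from the median of the 500 genes nearest in count. Under that limit 0.586% of all measured genes were lower and 1.43% higher, so 1 call among 42 members does not set them apart.

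**Figure D1:**
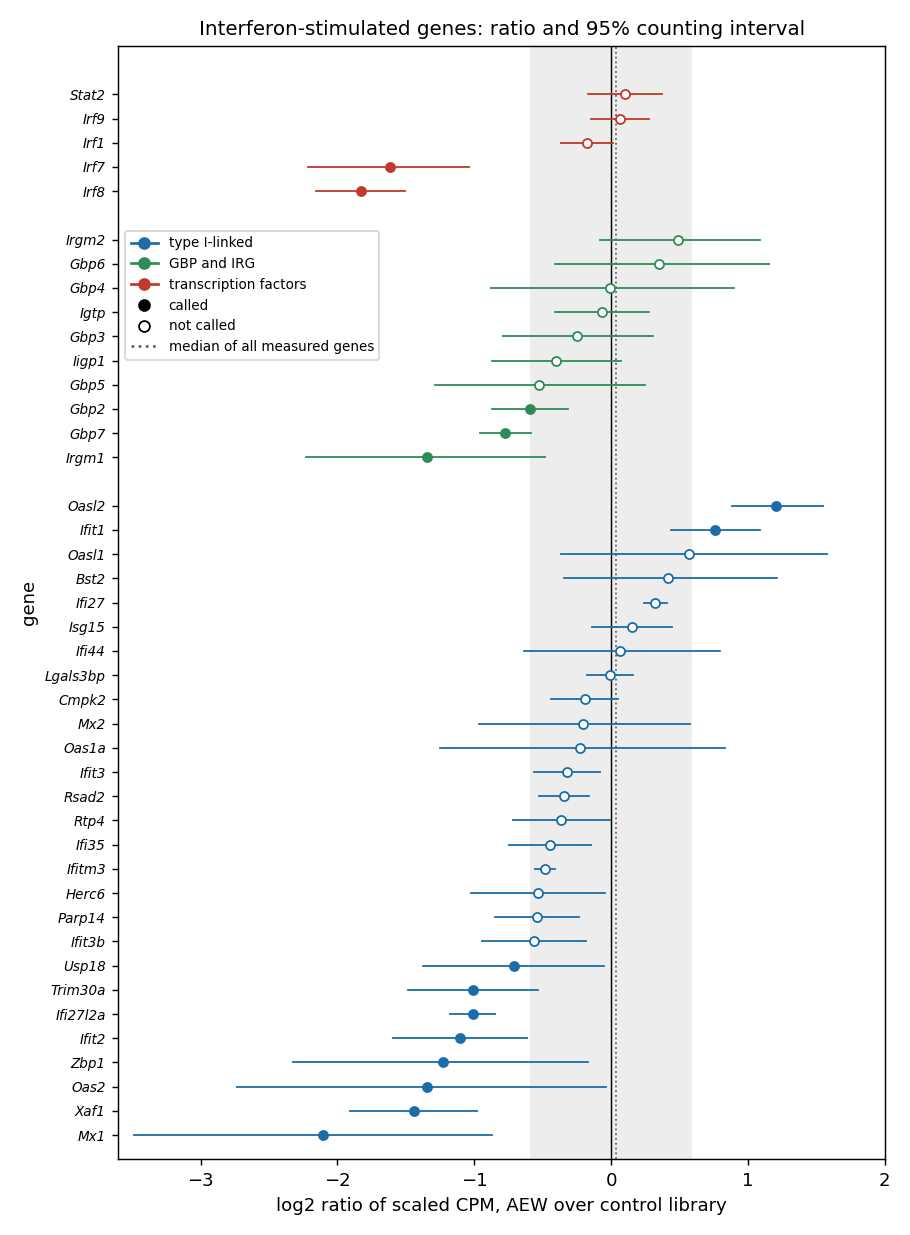
Log2 ratio of scaled CPM, AEW over control, for each of the 42 members by class, with the exact 95% counting interval as a line; filled points were called, the grey band marks less than 1.5-fold and the dotted line the median of all 14854 measured genes. Irf8 and Irf7 stand apart from the other transcription factors, and Oasl2 and Ifit1 are the only filled points above 0.

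The genes higher in the AEW library were Oasl2 and Ifit1, both antiviral effectors of the type I response. Oasl2, an oligoadenylate synthetase-like protein (ENSMUSG00000029561.17, chromosome 5, 114896936 to 114912234, plus strand), had 97 counts or 10.7 scaled CPM in the control and 367 counts or 24.8 scaled CPM in the AEW library, 2.31-fold higher (1.84 to 2.92). Ifit1, which binds viral RNA that lacks the host cap (ENSMUSG00000034459.8, chromosome 19, 34640871 to 34650009, plus strand), had 108 counts (11.9 scaled CPM) and 299 counts (20.2 scaled CPM), 1.69-fold higher (1.35 to 2.13). Both calls held under total count, upper quartile and DESeq2 scaling and after centring on GC content, but the log2 ratio of neither passed the deviation limit and neither was called when libraries were scaled on pan-neuronal markers.

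The other IFIT genes had ratios below 1. In this family, which lies in a cluster on chromosome 19, Ifit2 was 2.15-fold lower (1.53 to 3.02) at 84 and 64 counts. Ifit3 and Ifit3b were not called, at ratios of 0.799 (0.676 to 0.946) and 0.676 (0.520 to 0.881). The Ifit1 ratio was 3.63 times that of Ifit2 (2.41 to 5.49) and 2.12 times that of Ifit3 (1.59 to 2.82), where the intervals cover counting error only. Of all 50-base words in Ifit3 transcripts, 51.2% also occur in Ifit3b, so reads of this pair may have been split between them. Summed, Ifit3 and Ifit3b had 362 and 451 counts and a ratio of 0.761 (0.661 to 0.876).

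Members of the OAS family, whose enzymes make the activator of an RNA-degrading nuclease, had ratios on both sides of 1, with Oasl1 and Oasl2 above it and Oas1a and Oas2 below it. Oasl1, a translational inhibitor of Irf7, had 14 and 34 counts, and its ratio of 1.48 (0.776 to 2.99) was not called. Oas2 was 2.55-fold lower (1.03 to 6.67) at only 14 and 9 counts, a call that ended under total count scaling, where the ratio was 0.417 but the interval reached above 1, and after thinning of the AEW library, where it had too few counts to be called. Oas1a, at 15 and 21 counts, had a ratio of 0.855 (0.420 to 1.78), and 57.6% of its 50-base words also occur in other genes, chiefly Oas1g. The ratio of Oasl2 was 5.89 times that of Oas2 (2.28 to 15.8), whereas it could not be told from that of Oasl1 at this depth (1.56, 0.741 to 3.12).

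The ISG15 system attaches a ubiquitin-like protein to targets. Of its 3 genes among the members 1 was called lower, where 14.9% of all measured genes were. The median log2 ratio of the 3 was -0.53. Isg15, the modifier itself, had 154 and 280 counts, 17.0 and 18.9 scaled CPM, and a ratio of 1.11 (0.909 to 1.36). Herc6, the ligase that attaches it in mice, had a ratio of 0.691 (0.493 to 0.969), an interval below 1, but the difference was under 1.5-fold and not called. When the AEW library was thinned to the depth of the control it was called lower, at 0.622. Usp18, the protease that removes Isg15 and also dampens receptor signalling, had 41 counts in each library and was 1.64-fold lower (1.04 to 2.59) after scaling. That call ended under total count scaling, where the ratio was 0.649 and the interval reached above 1.

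Mx proteins and the Rsad2 locus were level or lower. Mx1, a GTPase that blocks influenza viruses (ENSMUSG00000000386.15, chromosome 16, 97447035 to 97462907, minus strand), had 21 counts (2.32 scaled CPM) in the control and 8 counts (0.540 scaled CPM) in the AEW library, 4.30-fold lower (1.83 to 11.2). Its neighbour Mx2 had 26 and 37 counts and a ratio of 0.869 (0.512 to 1.5), with an interval that still includes differences of more than 1.5-fold. Rsad2, which encodes viperin, and Cmpk2, the nucleotide kinase beside it, had ratios of 0.788 (0.693 to 0.896) and 0.874 (0.739 to 1.04) at 428 and 552 and at 239 and 342 counts. Both intervals exclude a difference of 1.5-fold for these adjacent genes of chromosome 12.

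Of the 3 sensor and ligase genes among the members, Zbp1, Trim30a and Parp14, 2 were called lower, where 14.9% of all measured genes were. Zbp1, a sensor of Z-form nucleic acid, was 2.34-fold lower (1.12 to 5.00) at 20 and 14 counts, and Trim30a, a ubiquitin ligase of the TRIM family, 2.01-fold lower (1.45 to 2.80) at 86 and 70 counts. Xaf1, a pro-apoptotic partner of XIAP (ENSMUSG00000040483.15, chromosome 11, 72301629 to 72313733, plus strand), had 106 counts (11.7 scaled CPM) and 64 counts (4.32 scaled CPM), 2.71-fold lower (1.97 to 3.76). Parp14, an ADP-ribosyltransferase, had a ratio of 0.686 (0.555 to 0.848) and was not called. Xaf1 kept a ratio below 1 under each scaling tried, also when the libraries were scaled on macrophage markers.

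The most deeply counted members showed small differences or opposite ones. Ifitm3, a membrane protein that blocks virus entry, had 2951 and 3455 counts and a ratio of 0.715 (0.681 to 0.752), so the interval excluded 1 but the difference was under 1.5-fold. Ifi27 had 1712 and 3502 counts and a ratio of 1.25 (1.18 to 1.32), whereas its neighbour on chromosome 12, Ifi27l2a, was 2.02-fold lower (1.80 to 2.26) at 666 and 541 counts. The Ifi27 ratio was 2.52 times that of Ifi27l2a (2.21 to 2.87). Bst2, or tetherin, which holds budding virus at the cell surface, had 22 and 48 counts and a ratio of 1.33 (0.789 to 2.32). Ifi35, Rtp4, Lgals3bp and Ifi44 had ratios of 0.733, 0.778, 0.994 and 1.05 and were not called.

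**Figure D2:**
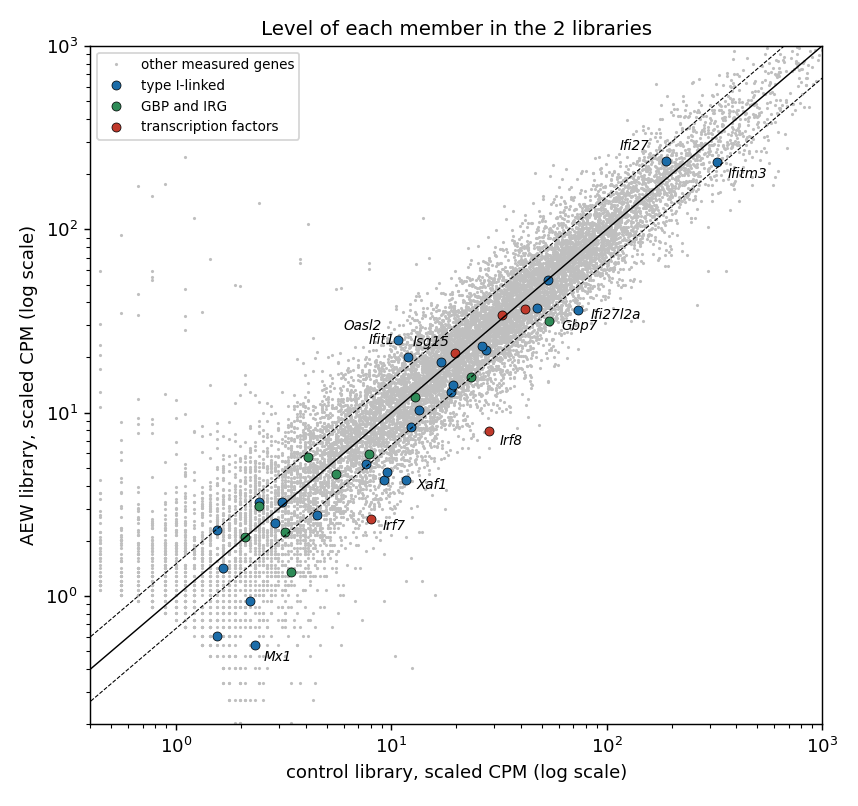
Scaled CPM of the 42 members in the control (x axis) and AEW library (y axis), both on log scales, over other measured genes in grey; the solid line marks equal levels, the dashed lines 1.5-fold, and genes at 0 in either library are not drawn. Most members lie on or just under the line of equal levels, with Mx1, Irf8, Irf7 and Xaf1 furthest below it and Oasl2 and Ifit1 above it.

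GBP and IRG proteins are GTPases that gather on the vacuoles of intracellular pathogens. Of these 10 genes, 3 were lower and none higher, where 14.9% and 17.3% of all measured genes were. The median log2 ratio of the 10 was -0.32. Gbp7 (ENSMUSG00000040253.15, chromosome 3, 142530342 to 142550149, plus strand) had 488 counts (53.9 scaled CPM) and 467 counts (31.5 scaled CPM), 1.71-fold lower (1.5 to 1.95). Gbp2 lay just past the threshold, 1.51-fold lower (1.25 to 1.83) at 213 and 231 counts. Both calls ended after centring on GC content, where Gbp7 had a ratio of 0.678 and Gbp2 of 0.682, and that of Gbp2 also under total count scaling (0.704) and after thinning of the AEW library (0.719). The third gene, Irgm1, which restrains other IRG proteins (ENSMUSG00000046879.7, chromosome 11, 48861968 to 48871683, minus strand), had 31 and 20 counts, a scaled level 2.54-fold lower (1.40 to 4.70).

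The GBP genes lie in clusters on chromosomes 3 and 5. The chromosome 3 genes, Gbp2, Gbp3, Gbp5 and Gbp7, all had ratios below 1 and together had 780 and 800 counts, 1.60-fold lower (1.44 to 1.76). Gbp4 and Gbp6 of chromosome 5 had 41 and 77 counts together, with a ratio of 1.15 (0.776 to 1.72). Those few reads do not tell Gbp4 from an equal level (0.997, 0.546 to 1.87), and 70.7% of the 50-base words of Gbp6 also occur in other gene models. Among the IRG genes, Irgm2 had 37 and 85 counts and a ratio of 1.40 (0.943 to 2.12), 3.56 times that of Irgm1 (1.71 to 7.47). Igtp, whose gene model overlaps that of Irgm2 on the same strand, had a ratio of 0.953 (0.751 to 1.21), and Iigp1 one of 0.757 (0.548 to 1.05). The promoters of Irgm1 and Irgm2 printed above both hold ISRE letters, and only that of Irgm2 holds GAS letters.

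Among the transcription factors, Irf8 and Irf7 were lower while the members of the type I signalling complex were level. Irf8, which directs the development of monocytes and dendritic cells (ENSMUSG00000041515.10, chromosome 8, 120736358 to 120756694, plus strand), had 256 counts (28.3 scaled CPM) in the control and 118 counts (7.96 scaled CPM) in the AEW library, 3.55-fold lower (2.84 to 4.46). Irf7, the factor that amplifies type I interferon production (ENSMUSG00000025498.15, chromosome 7, 141262706 to 141266481, minus strand), had 73 counts (8.06 scaled CPM) and 39 counts (2.63 scaled CPM), 3.06-fold lower (2.05 to 4.64). Exons of Irf7 overlap those of Phrf1 on the opposite strand, and the use of strand in counting is not stated, so reads of both genes cannot be told apart. Phrf1, named after its overlap was seen, had a ratio of 1.01 (0.872 to 1.17). Irf9 and Stat2, parts of the complex that binds ISREs, had ratios of 1.05 (0.905 to 1.21) and 1.07 (0.889 to 1.29). Irf1, a factor induced by interferon gamma, had a ratio of 0.884 (0.774 to 1.01). The Irf7 ratio was 3.21 times lower than that of Irf9 (2.08 to 4.99).

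Set side by side, the type I-linked class and the GTPase class differed little, and Irf8 had a lower ratio than the sum of either. As a single gene Irf8 still lay within the range of the type I-linked members, where Mx1 was 4.30-fold lower at 21 and 8 counts. Summed over genes, the 27 type I-linked members had 8212 and 11665 counts, 1.15-fold lower (1.12 to 1.18), and the 10 GBP and IRG members 1076 and 1251 counts, 1.41-fold lower (1.30 to 1.53). The first ratio was 1.22 times the second (1.12 to 1.33). Ifitm3 and Ifi27 supplied most type I-linked counts, and without these genes it was 1.14 times the second (1.04 to 1.25), whose interval nearly reaches 1. With Gbp7, the most abundant GBP gene, left out of the second class as well, the summed ratios were 0.810 for type I-linked and 0.815 for GBP and IRG members. With only the most abundant member of each class left out, Ifitm3 and Gbp7, the summed ratios were 0.953 and 0.815. Whether the classes differed in sum thus depended on the genes left out. By gene, 29.6% of type I-linked and 30.0% of GBP and IRG members were called lower, where 14.9% of all measured genes were. The medians of -0.36 and -0.32 lay close together. The Irf8 ratio was 3.08 times lower than that of the summed type I-linked members (2.46 to 3.87) and 2.52 times lower than that of the GBP and IRG members (1.99 to 3.21). These intervals compare the reads of 2 libraries, and no spread between animals was measured.

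**Figure D3:**
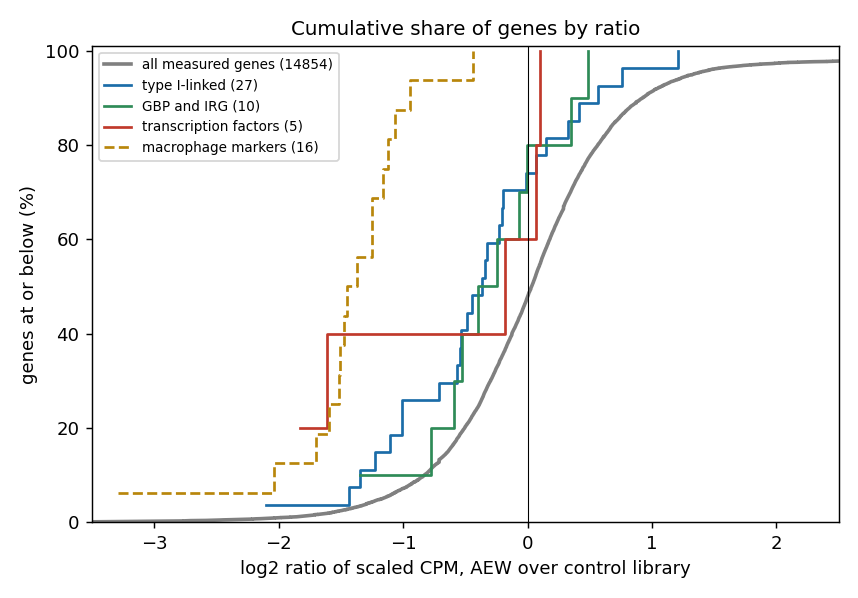
Share of genes (y axis, %) at or below each log2 ratio of AEW over control (x axis) for the 3 member classes, for all 14854 measured genes (grey) and for 16 macrophage markers (dashed). The type I-linked and the GBP and IRG curves run together, left of the grey curve and right of the macrophage markers.

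Macrophage and neutrophil markers moved in the direction of Irf8, and dendritic cell markers went both ways. Summed over 16 macrophage markers, the level was 952 scaled CPM in the control library and 361 in that of AEW mice, 2.64-fold lower (2.55 to 2.73), with a median log2 ratio of -1.41. Among them Ctss, a lysosomal protease, was 4.11-fold and Ms4a7 9.82-fold lower, and Cx3cr1, the fractalkine receptor, 1.93-fold. The Irf8 ratio was 1.35 times lower than that of this sum (1.08 to 1.69), and the Irf7 ratio could not be told from it (1.16 times lower, 0.776 to 1.76). Of 6 dendritic cell markers 3 were lower, among them Clec9a (28 and 10 counts) and Siglech (41 and 21 counts), and Flt3 was higher (35 and 161 counts). Of 7 measured neutrophil markers 6 were lower. Endothelial (2 of 9 lower), satellite glia (0 of 6) and myelinating Schwann cell markers (0 of 6) had medians between -0.13 and -0.11. Of 7 fibroblast markers 4 were lower, with a median log2 ratio of -1.21 and a summed level 2.08-fold lower (2.07 to 2.10), and among them Apod was 2.92-fold and Lum, a matrix proteoglycan, 2.88-fold lower. The summed level of 4 B cell markers was 2.41-fold lower (1.71 to 3.42), at 87 and 59 counts. What part these cells had in the members' ratios was not tested.

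Scaled on the summed macrophage markers, 38 of 42 members had ratios above 1, and those below were Irf8 (0.743), Irf7, Xaf1 and Mx1. That scaling shifts every log2 ratio by 1.40, so the members' median of 1.05 still lay below the 1.43 of all measured genes. Scaled on pan-neuronal markers, which shifts every log2 ratio by -0.74, 32 of 42 members were called lower and none higher. On that scale 56.2% of all measured genes were called lower and 3.91% higher. Oasl2 and Ifit1 alone among the members kept ratios above 1. The order of the members is the same under each such scaling.

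Interferons themselves were not detected. All 15 listed ligands, Ifnb1, Ifng and the alpha, epsilon, kappa, zeta and lambda genes among them, had 0 counts in both libraries, which allows up to 3 counts each, or 0.331 scaled CPM for the control and 0.202 for AEW. Of the receptors, Ifnar2 was 1.66-fold lower (1.48 to 1.86) at 608 and 601 counts, while Ifnar1 (0.804, 0.697 to 0.929), Ifngr1 (0.747, 0.667 to 0.836) and Ifngr2 (1.15, 0.987 to 1.35) were not called. Both receptor pairs were thus expressed in both libraries. Of 6 receptor chains 1 was called lower and none higher, where 14.9% and 17.3% of all measured genes were.

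Of 9 signalling genes below the receptors 7 were not called, and of 10 inhibitors 5 were lower. Among the 9 kinases, STAT and IRF partners, 2 were higher and none lower, where 17.3% and 14.9% of all measured genes were. Jak1 had a ratio of 1.05 (1.01 to 1.09) and Jak2 of 0.726 (0.600 to 0.881). Tyk2 was 1.57-fold higher (1.22 to 2.02). None of the inhibitors was higher, and over all measured genes 14.9% were lower. The lower genes were led by the phosphatases Ptpn6 (2.81-fold, 2.10 to 3.77), which is abundant in blood cells, and Ptpn2 (2.0-fold, 1.53 to 2.62). Socs1 (1.33) and Irf2bp1 (1.08) had ratios above 1, and Ptpn11, Pias1 and Pias3 ratios below 1 that were not called.

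Among sensors of foreign nucleic acid 42.9% were called lower and among other antiviral genes 41.9%, where 14.9% of all measured genes were. Of 14 measured sensing genes 6 were lower and 1 higher, with Ifih1, the RNA sensor MDA5, 2.44-fold lower (1.69 to 3.55), Unc93b1, a chaperone of endosomal Toll-like receptors, 2.13-fold lower (1.79 to 2.54) and the kinase Tbk1 1.71-fold higher (1.38 to 2.13). Of 31 other measured antiviral genes, 13 were lower and 2 higher, with a median log2 ratio of -0.59. Trim30d was 5.51-fold lower (2.75 to 12.0) and Ifi204, of the family of cytosolic DNA sensors, 3.62-fold lower (2.49 to 5.35). The RNA-editing enzyme Adar was 1.62-fold higher (1.37 to 1.92) and Oas1c 2.04-fold (1.37 to 3.13). Of 5 other measured GBP and IRG genes only Gbp9 was called, 2.75-fold lower (1.58 to 4.90).

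Antigen-processing and chemokine genes that respond to interferon gamma had a median log2 ratio of 0.06. Of 13 measured, 3 were lower and 2 higher, where 14.9% and 17.3% of all measured genes were. The immunoproteasome subunit Psmb9 was 2.07-fold lower (1.49 to 2.89) and the lysosomal reductase Ifi30 1.96-fold lower (1.74 to 2.21). Cxcl10, a chemokine for activated T cells, was 2.49-fold higher (1.31 to 5.15) at 12 and 49 counts, and the peptide transporter subunit Tap2 1.5-fold (1.19 to 1.90).

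**Figure D4:**
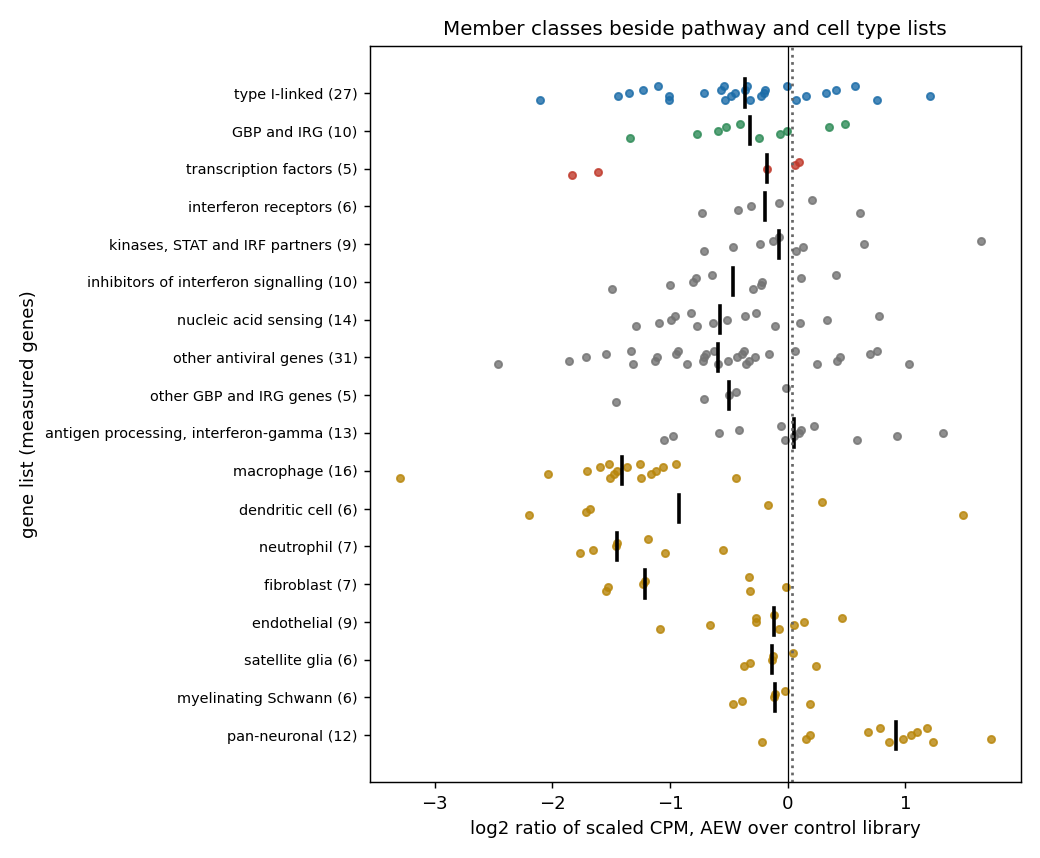
Log2 ratio of AEW over control for each measured gene of the 3 member classes, 7 pathway lists and 8 cell type lists; points are genes, vertical bars list medians, numbers in brackets the measured genes, and the dotted line the median of all measured genes. Among the lists drawn, neutrophil, macrophage and fibroblast markers have the lowest medians and pan-neuronal markers the highest, with the member classes between them; keratinocyte (median 6.19), T and NK cell and B cell markers are not drawn.

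ISRE letters did not separate the 30 members with a window by ratio. The 12 members without a window are not covered, and only 8 of the 13 members called lower had one. Of the 17 members with ISRE letters in a window, 1 was higher and 4 lower, with a median log2 ratio of -0.32, and of the 13 without them 1 was higher and 4 lower, with a median of -0.19. Oasl2, the member with the highest ratio, is in the second group, and Ifit1 in the first.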

How the data were processed

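Total RNA was extracted with Trizol, and libraries were prepared from 500 ng each with a Lexogen QuantSeq kit, per the labels' protocols. Bowtie2, bedtools and build mm10 are named in the submitters' processing notes, which state no version. The annotation, the use of strand and the handling of multiple matches and duplicates are not given here. The deposited values are whole-number read counts per gene symbol, made by the authors and not normalized.

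TMM factors (edgeR 4.0.16, R 4.3.3) were 0.970 (control) and 1.03 (AEW). Ratios of scaled CPM carry exact conditional binomial (Clopper-Pearson) 95% intervals, and ratios between genes or classes exact conditional odds ratio intervals (SciPy 1.17.1). Intervals cover counting error only, since reads without molecular identifiers are not independent molecules. Genes with a summed count under 20 and 79 rows with repeated symbols were not called. Of 253 list symbols, 249 matched. All members are named, and of other lists the 2 genes with the highest lower bounds and the 2 with the lowest upper bounds, plus the main receptors and kinases. The values of some genes so chosen are left out of the text. Members and lists were chosen with earlier results of these data known. Symbols were matched to GENCODE M21 on mm10. In simulated data for this comparison, of 14840 genes, 94.0% of doubled and 90.9% of halved genes were called. Of the unchanged genes 75 were called higher and 48 lower. The simulated counts held counting error only, so these rates do not cover spread between animals or libraries. Alternatives were 3 other normalizations, 2 marker scalings, thinning, filters, stricter calls and joined Ifit3 genes. GC centring, a deviation limit and leaving out near-identical members were added after the data were seen.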

Additional observations from a re-analysis of the deposited data

How the results depend on the processing

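Both libraries are single pools, so no replicate could be left out, and no paired analysis was possible because each group has 1 library. DESeq2 size factors (DESeq2 1.42.0) and upper quartile scaling changed no count by over 1.5 times; the latter added Ifit3b to the genes called lower. Under total count scaling the summed type I-linked ratio was 0.922.

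Scaled on pan-neuronal markers, 0 members were higher and 32 lower (0 and 20 of the type I-linked, 7 GBP and IRG lower). Of all measured genes 3.91% were higher and 56.2% lower on that scale. The median log2 ratio of the members was -1.10, and the Irf8 ratio was 0.168. The summed ratios were 0.518 for type I-linked and 0.424 for GBP and IRG members. Scaled on macrophage markers, 32 members were higher and 0 lower (20 and 0 type I-linked, 9 and 0 GBP and IRG). Of all measured genes 87.7% were higher and 0.552% lower on that scale. The median of the members was 1.05, the summed ratios were 2.29 and 1.87, and the Irf8 ratio was 0.743. Members called lower that turned above 1 on that scale, by its construction as a constant shift, were Gbp2 (1.75), Gbp7 (1.54), Ifi27l2a (1.31), Ifit2 (1.23), Irgm1 (1.04), Oas2 (1.04), Trim30a (1.31), Usp18 (1.61) and Zbp1 (1.13).

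At 2-fold, 1 member was higher, a type I-linked gene, and 10 were lower, of them 7 type I-linked and 1 GBP or IRG. Of all measured genes 8.23% were higher and 6.85% lower at 2-fold. With an interval that excludes 1.5-fold, 1 member, also type I-linked, was higher and 7 were lower. Of the 7, 4 were type I-linked and 1 GBP or IRG. By this rule 8.93% of all measured genes were higher and 7.21% lower. With a summed count of at least 100, which keeps 29 members, 8 were lower, 4 of them type I-linked. Among all genes kept, 13.6% were lower. With the deviation limit, 0 were higher and 1 was lower, 0 in either class, where 1.43% and 0.586% of all measured genes were. After GC centring 11 members were lower, of them 8 type I-linked and 1 GBP or IRG, where 14.9% of all measured genes were. Without their most abundant member the summed ratios were 0.953 for type I-linked and 0.815 for GBP and IRG members. After thinning, 12 of the 41 members still measured were lower, where 15.2% of all measured genes were. The calls of Gbp2 and Oas2 ended and Herc6 was called. Depth limits Mx1, Mx2, Oas1a, Oas2, Oasl1, Zbp1, Bst2, Gbp4, Gbp5, Gbp6 and Irgm1 most, each with under 75 counts in all.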
